A study of Mus musculus with 12 samples.

Results

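The block is the interval of mouse chromosome 15 from 35 to 40 Mb (mm10), a run of genes that holds Grhl2, Ncald and Rrm2b. Its members are the accessible regions that start inside those coordinates, 265 of the 94161 regions in the table (0.281%), and the rest of chromosome 15 holds 3737. The interval was selected on the knockout minus wild-type differences in accessibility of marginal zone and follicular B cells, in earlier results from these libraries. The knockout differences inside it therefore describe the block and support nothing further, and no p is given for them. Outside that choice lies the comparison of the 2 wild-type cell types, which shares the wild-type libraries with it.

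The assay was ATAC-seq, a method where the transposase Tn5 cuts open chromatin and tags it for sequencing. Each library came from 10000 unstimulated spleen B cells of female C57BL/6J mice. Marginal zone B cells (MZB) were gated as CD21hi CD1d+ CD23- and follicular B cells (FoB) as CD23+ CD21int CD1d-, both within B220+ cells without Thy1.1, F4/80, CD11b, CD93 or GL7. The 4 groups were wild-type MZB, LSD1 knockout MZB, wild-type FoB and LSD1 knockout FoB, with 3 libraries each. The labels give neither the means of LSD1 deletion nor the cells it took place in, and no age of the mice.

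LSD1, encoded by Kdm1a, removes methyl groups from histone H3 lysine 4, a mark of active promoters and enhancers, and works in corepressor complexes. Marginal zone B cells sit at the edge of the white pulp and answer blood-borne antigen early, and follicular B cells recirculate through the follicles. The genes in the block are not a pathway. Grhl2 encodes a grainyhead-like transcription factor of epithelia, Ncald the neuronal calcium sensor neurocalcin delta, and Rrm2b a small subunit of ribonucleotide reductase that supplies deoxynucleotides for DNA repair. Around them lie Vps13b, a lipid transfer protein of the Golgi, Pabpc1, a poly(A)-binding protein, Ywhaz, a phosphoserine-binding adaptor, Klf10, a zinc finger factor induced by TGF-beta, Azin1, an inhibitor of antizyme that raises polyamine levels, and Rims2, a scaffold of presynaptic release sites.

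The sequences of the accessible regions themselves were not analysed here. RefSeq promoter windows (GRCm38.p6, the assembly that mm10 denotes), each running from upstream of a transcript start to just inside it, were matched by position, and 14 windows of 11 genes fell in the block. Of these, 5 overlapped a measured region. Those printed are the long noncoding RNA promoter nearest before the strongest knockout differences, of Gm34820 at chr15:37135697-37135996 on the plus strand, and one on the far side of them, of Gm41309 at chr15:38602237-38602536 on the minus strand. They are shown because both lie in regions that were not called in either knockout comparison, and capitals mark CG dinucleotides.
Gm34820: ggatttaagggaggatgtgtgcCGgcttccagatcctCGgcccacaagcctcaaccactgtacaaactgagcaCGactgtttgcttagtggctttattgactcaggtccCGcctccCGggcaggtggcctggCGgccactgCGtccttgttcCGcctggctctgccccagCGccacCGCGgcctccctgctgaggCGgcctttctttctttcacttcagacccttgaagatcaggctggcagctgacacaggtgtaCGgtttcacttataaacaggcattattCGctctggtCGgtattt
Gm41309: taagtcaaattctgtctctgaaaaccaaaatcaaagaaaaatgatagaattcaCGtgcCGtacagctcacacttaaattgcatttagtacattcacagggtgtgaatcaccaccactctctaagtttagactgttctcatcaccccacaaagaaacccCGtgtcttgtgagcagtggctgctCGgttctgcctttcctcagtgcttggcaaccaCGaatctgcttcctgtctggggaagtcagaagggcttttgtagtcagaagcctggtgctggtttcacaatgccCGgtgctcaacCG
The Gm34820 window holds 15 CG dinucleotides and is 57.3% G or C. The Gm41309 window holds 7 and is 46.7% G or C, against medians of 7 and 52.7% over 32851 promoter windows.

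Values are in rppm, reads in a region scaled to a total of 1000000 over all regions, and whole reads could be recovered from them. The libraries held 3169966 to 10375328 reads over the regions, so that 3 reads are worth 0.289 to 0.946 rppm. Regions assigned to the 6 B cell marker genes summed to 460 to 583 rppm in the 12 libraries. Those of the marginal zone list summed to 611 to 674 rppm in MZB and 377 to 423 in FoB, and those of the follicular list to 335 to 364 in MZB and 459 to 487 in FoB. The single region at Kdm1a, at one end of the gene (chromosome 4, 136601890 to 136603082), was not called in either knockout comparison. The labels do not say which part of the gene was deleted, so it checks nothing about them. FoB wild-type library 2 was the deepest and stood apart from the other wild-type libraries in the block, so the FoB counts and the strongest FoB differences are given with and without it.

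A region was called when its adjusted p was below 0.05 (limma on log2(rppm + 0.5), Benjamini-Hochberg over the 89782 regions that reached 1 rppm in 3 or more libraries). Of the 265 block regions, 242 passed that filter and 23 did not. The first tested region inside the block (35013596 to 35013722) differed by -1.28 ± 0.45 (log2, SE) between knockout and wild-type MZB and -0.33 ± 0.45 in FoB, and the tested region just outside (34990744 to 34991047) by -1.06 ± 0.39 and 0.35 ± 0.39. At the far end, the last one inside (39986386 to 39986648) differed by -1.49 ± 0.42 and -0.41 ± 0.42, and the next outside (40052481 to 40052684) by -0.70 ± 0.44 and -0.10 ± 0.44. None of the 4 was called, so the coordinates of the block are not where the knockout differences begin or end.

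In knockout MZB, 21 of the 242 tested block regions were called higher (8.68%) and 2 lower (0.826%). Over all tested regions 0.502% were called higher and 0.275% lower. In knockout FoB, 18 were called higher (7.44%) and 2 lower (0.826%), beside 0.32% and 0.219% of all tested regions. Without FoB wild-type library 2, 19 were higher and 1 lower. Since these contrasts chose the block, nothing is read from the shares. The median log2 difference over the tested block regions was -0.02 in each cell type, the same as over all tested regions.

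A total of 30 regions were called in at least 1 cell type, 26 higher and 4 lower, and all 30 had the same sign in both. Of these, 13 were called in both cell types, all of them higher, beside 0.101% of all tested regions, and 0 were called lower in both. At a difference of 4-fold or more in both cell types there were 7, of 13 such regions in the whole table (0.0145% of tested regions). Of the 26 called higher, 9 reached 1 rppm in fewer than 3 of the 6 wild-type libraries, so they passed the filter through the knockout libraries. Across the 242 regions the difference in MZB and that in FoB had a Pearson r of 0.785, as a description. The r was 0.826 over the 23 tested regions of the stretch set out below, and 0.538 over the other 219. Every library had its own group, but all regions of a library share its depth and scaling.

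Markers of other cell types were summed in the same libraries. The 10 regions at the 4 immature B cell genes (Cd93, Spn, Rag1, Rag2), all of which had a region, summed to 49.4 to 56.9 rppm in wild-type and 76.0 to 81.7 in knockout MZB, and to 83.0 to 91.9 and 96.8 to 97.3 in FoB. T cell genes had a region at 2 of 5, with none at Cd3e, Cd4 or Cd8a, and summed to 43.8 to 49.9 rppm in wild-type and 53.2 to 58.7 in knockout FoB, while in MZB they summed to 58.6 to 67.3 and 63.7 to 67.7. Myeloid genes had a region at 4 of 5, with none at Lyz2, and summed to 95.5 to 110 rppm in wild-type and 94.6 to 108 in knockout MZB, and to 54.2 to 59.0 and 47.8 to 56.0 in FoB. The 3 plasma cell genes summed to 180.02 to 202 and 180.13 to 198 rppm in MZB and 220 to 235 and 217 to 226 in FoB. The B cell list summed to 560 to 583 rppm in wild-type and 525 to 558 in knockout FoB, and to 460 to 493 and 473 to 520 in MZB. The immature list in both cell types and the T cell and B cell lists in FoB did not overlap between genotypes, and the B cell list was the one that was lower in the knockout. Their part in the result was not tested.

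The strong differences lay in a stretch of 553585 bp, from 37346645 to 37900230. It runs from the end of Grhl2 (37232821 to 37363569), across Ncald (37366175 to 37792519), to the intergenic side of Rrm2b (37923952 to 37961119). It was set, after the values were seen, as the first to the last region called 4-fold or more higher in both cell types. The stretch holds 24 regions, 23 of them tested, which together cover 10116 bp, and 18 lie in gene bodies. In MZB 15 were called higher and in FoB 14, none was called lower, and 18 were called in at least 1 cell type. Of the 23 tested, 10 reached 1 rppm in fewer than 3 of the 6 wild-type libraries, so they passed the filter through the knockout libraries. Over all 23, these included, the median log2 difference was 1.65 in MZB and 1.40 in FoB. It was -0.06 and -0.04 over the 219 tested regions of the rest of the block. In that rest, 6 regions were called higher and 2 lower in MZB, and 4 higher and 2 lower in FoB. Over all tested regions 0.502% were called higher and 0.275% lower in MZB, and 0.32% and 0.219% in FoB. The knockout differences set the stretch, so nothing is read from its counts or medians.

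**Figure D1:**
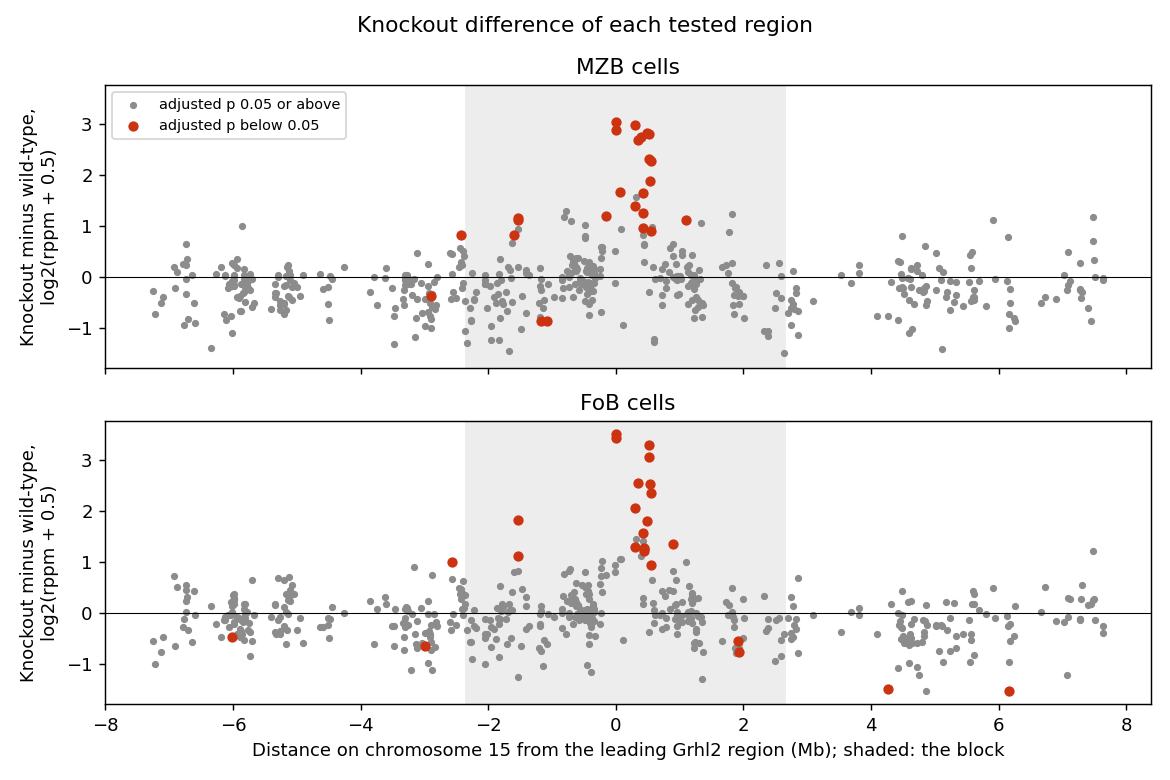
Knockout minus wild-type log2 difference of each tested region from 30 to 45 Mb in MZB and FoB, against its distance along chromosome 15 in Mb from the leading Grhl2 region. Each point is 1 region, called regions are coloured, and the shaded band is the block. Within the block, 15 regions in MZB and 14 in FoB were called higher in the 553585 bp stretch, and none lower. The stretch was itself set by such calls.

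The stretch began at the Grhl2 end. The region at 37346645 to 37347677, inside the Grhl2 gene body, measured 1.35, 1.60 and 1.24 rppm in wild-type MZB, against 12.8, 12.9 and 14.5 in knockout MZB. In FoB it measured 0.274, 1.83 and 0.239 rppm in wild-type and 13.7, 9.89 and 13.0 in knockout libraries. All 6 knockout libraries were above all 6 wild-type ones, and the highest wild-type value was that of FoB library 2. The log2 differences were 2.88 ± 0.31 (SE) in MZB and 3.51 ± 0.31 in FoB, the latter 4.05 without FoB wild-type library 2.

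A second Grhl2 region followed 4.75 kb on, at 37352428 to 37353014. Wild-type MZB libraries held 0.270, 0 and 0.622 rppm and knockout ones 9.33, 5.05 and 3.84. Wild-type FoB libraries held 0, 1.45 and 0, all of it in library 2, and knockout ones 5.79, 9.47 and 9.15. In recovered reads this was 3 against 69 in MZB, a ratio of 22.7 after scaling to depth (95% exact interval 7.44 to 113, counting error only). The log2 differences were 3.03 ± 0.43 in MZB, the largest of the block there, and 3.43 ± 0.43 in FoB, or 4.08 without FoB wild-type library 2. The adjusted p of this region was past the threshold in both cell types with limma, while DESeq2 on the reads did not call it in MZB.

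Of the 16 tested regions assigned to Ncald, 9 were called higher in knockout MZB and 8 in knockout FoB, each count including 1 region that lies outside the gene body. Over all tested regions 0.502% and 0.32% were called higher, and nothing is read from the counts. The Ncald regions with the strongest differences had little signal in wild-type cells. The region at 37654311 to 37654721 measured 0.810, 0.266 and 0.933 rppm in wild-type and 6.30, 9.46 and 9.75 in knockout MZB. In FoB it measured 0.274, 0.771 and 0 in wild-type and 2.07, 2.88 and 3.56 in knockout libraries. The groups did not overlap in either cell type, and the log2 difference was 2.97 ± 0.38 in MZB and 2.05 ± 0.38 in FoB (2.40 without FoB wild-type library 2).

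At 37690748 to 37691286, also within Ncald, wild-type MZB libraries measured 0.270, 0.266 and 0.622 rppm and knockout ones 4.66, 3.47 and 7.98. Wild-type FoB libraries measured 0, 0.964 and 0.239 and knockout ones 3.52, 4.94 and 4.32. Here too every knockout library was above every wild-type one, with log2 differences of 2.68 ± 0.39 and 2.54 ± 0.39 (2.96 in FoB without wild-type library 2). The difference of the 2 effects was 0.14 (95% interval -0.98 to 1.26).

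Other Ncald regions were open in wild-type cells and more so in the knockout. At 37773693 to 37774166, wild-type libraries measured 5.13, 5.05 and 2.80 rppm in MZB and 2.19, 3.57 and 2.63 in FoB. The knockout libraries measured 11.9, 10.1 and 10.3 in MZB and 9.52, 8.65 and 9.15 in FoB. The log2 differences were 1.26 ± 0.23 and 1.56 ± 0.23 (1.73 in FoB without wild-type library 2). The region at 37643952 to 37644504, which also overlaps the noncoding gene Gm41304, differed by 1.39 ± 0.31 in MZB and 1.29 ± 0.31 in FoB. Its wild-type range was 2.13 to 2.97 rppm in MZB and 0.548 to 2.70 in FoB, and its knockout range 6.76 to 9.16 and 4.35 to 4.94, so the groups were separate. Its MZB call was lost without any MZB library other than knockout library 1 (1.27 to 1.47), and its FoB call without any of 9 libraries, to as low as 0.77 without FoB wild-type library 1.

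In 4 Ncald regions the threshold was passed in MZB and not in FoB. At 37737990 to 37738204, MZB wild-type libraries held 1 read in all and knockout ones 36, a ratio of 35.5 (95% exact interval 5.97 to 1440), and FoB held 5 and 12 reads. The log2 differences there were 2.74 ± 0.44 and 1.11 ± 0.44. At 37418767 to 37419209, knockout MZB libraries measured 9.10, 8.83 and 9.75 rppm against 3.24, 2.39 and 2.18 in wild-type (1.66 ± 0.37), and knockout FoB 0.828, 2.06 and 1.02 against 0, 1.06 and 0.239 (1.05 ± 0.37). This region stayed low in FoB in both genotypes, and the FoB libraries overlapped. The regions at 37765709 to 37766580 and 37774848 to 37775126 differed by 0.96 ± 0.19 and 1.65 ± 0.38 in MZB and by 0.29 ± 0.19 and 1.40 ± 0.38 in FoB. Without FoB wild-type library 2 the last of these was called in FoB too, at 1.78. The MZB call at 37418767 was lost without any MZB library other than wild-type library 1 (1.56 to 1.69), that at 37774848 without knockout library 2 or 3 or wild-type library 2 or 3 (1.45 to 1.58), and that at 37765709 without wild-type library 3 (0.81).

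In 3 Ncald regions, all near the end of the gene at 37792519, the threshold was passed in FoB and not in MZB. The region at 37786742 to 37787219 measured 6.57, 8.58 and 4.54 rppm in wild-type and 16.55, 16.27 and 14.995 in knockout FoB (1.26 ± 0.18). In MZB it measured 10.8, 12.5 and 12.4 in wild-type and 20.1, 16.1 and 21.3 in knockout libraries (0.66 ± 0.18), which also did not overlap. Its neighbour at 37787429 to 37787772 differed by 1.22 ± 0.18 in FoB and 0.63 ± 0.18 in MZB. The third, at 37791585 to 37792182, measured 3.83, 5.59 and 3.34 rppm in wild-type and 9.31, 11.7 and 11.4 in knockout FoB (1.27 ± 0.23). In MZB its knockout libraries (9.10, 9.15 and 5.02) overlapped the wild-type ones (5.67, 5.58 and 6.84), with a difference of 0.30 ± 0.23.

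Between Ncald and Rrm2b, regions outside either gene body were called higher too. The one at 37836773 to 37837005, 44254 bp from Ncald, held 0 reads in the 3 wild-type MZB libraries together and 33 in the knockout ones (2.80, 3.79 and 2.66 rppm), at least 10.8-fold higher against a floor of 3 reads over the group. In FoB it held 5 reads in wild-type and 26 in knockout libraries, with a log2 difference of 1.79 ± 0.41. That FoB call was lost without knockout library 2 or 3 or wild-type library 1 or 3 (1.56 to 1.84).

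Of the 11 tested regions assigned to Rrm2b, 5 were called higher in each cell type. The shares over all tested regions were 0.502% in MZB and 0.32% in FoB. At 37871668 to 37872062, 51890 bp from the gene, wild-type MZB libraries measured 0.540, 0.532 and 0.933 rppm and knockout ones 6.53, 6.62 and 9.75. Wild-type FoB libraries measured 0, 3.08 and 0.239 and knockout ones 9.73, 10.5 and 10.4. Library 2 was the only FoB wild-type library above 1 rppm, and still below every knockout library. The log2 differences were 2.79 ± 0.41 in MZB and 3.29 ± 0.41 in FoB (4.14 without that library).

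The next region, 37874364 to 37874791, had the same shape. Wild-type MZB libraries measured 1.08, 1.06 and 0.622 rppm and knockout ones 7.93, 4.73 and 7.09 (2.31 ± 0.39), and FoB ones 0.274, 4.34 and 0.478 against 11.4, 13.4 and 12.5 (3.06 ± 0.39, or 3.89 without wild-type library 2). DESeq2 called neither of these 2 regions in either cell type. At 37885078 to 37885531 the differences were 1.89 ± 0.39 in MZB and 2.53 ± 0.39 in FoB (3.20 without FoB wild-type library 2), with knockout libraries at 6.53 to 7.09 and 3.30 to 7.04 rppm and wild-type ones at 1.08 to 1.87 and 0 to 1.93. The MZB call of this region was lost without knockout MZB library 2 (1.88) or without wild-type MZB library 1 (1.72).

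The stretch ended at 37899804 to 37900230, inside the long noncoding gene Gm35019 and 23722 bp from Rrm2b. Wild-type libraries there measured 0.270, 1.06 and 0.311 rppm in MZB and 0, 1.16 and 0.478 in FoB. Knockout libraries measured 3.73, 4.73 and 4.43 in MZB and 4.14, 4.53 and 4.07 in FoB. The groups were separate in both, with log2 differences of 2.27 ± 0.39 and 2.35 ± 0.39 (2.76 in FoB without wild-type library 2).

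**Figure D2:**
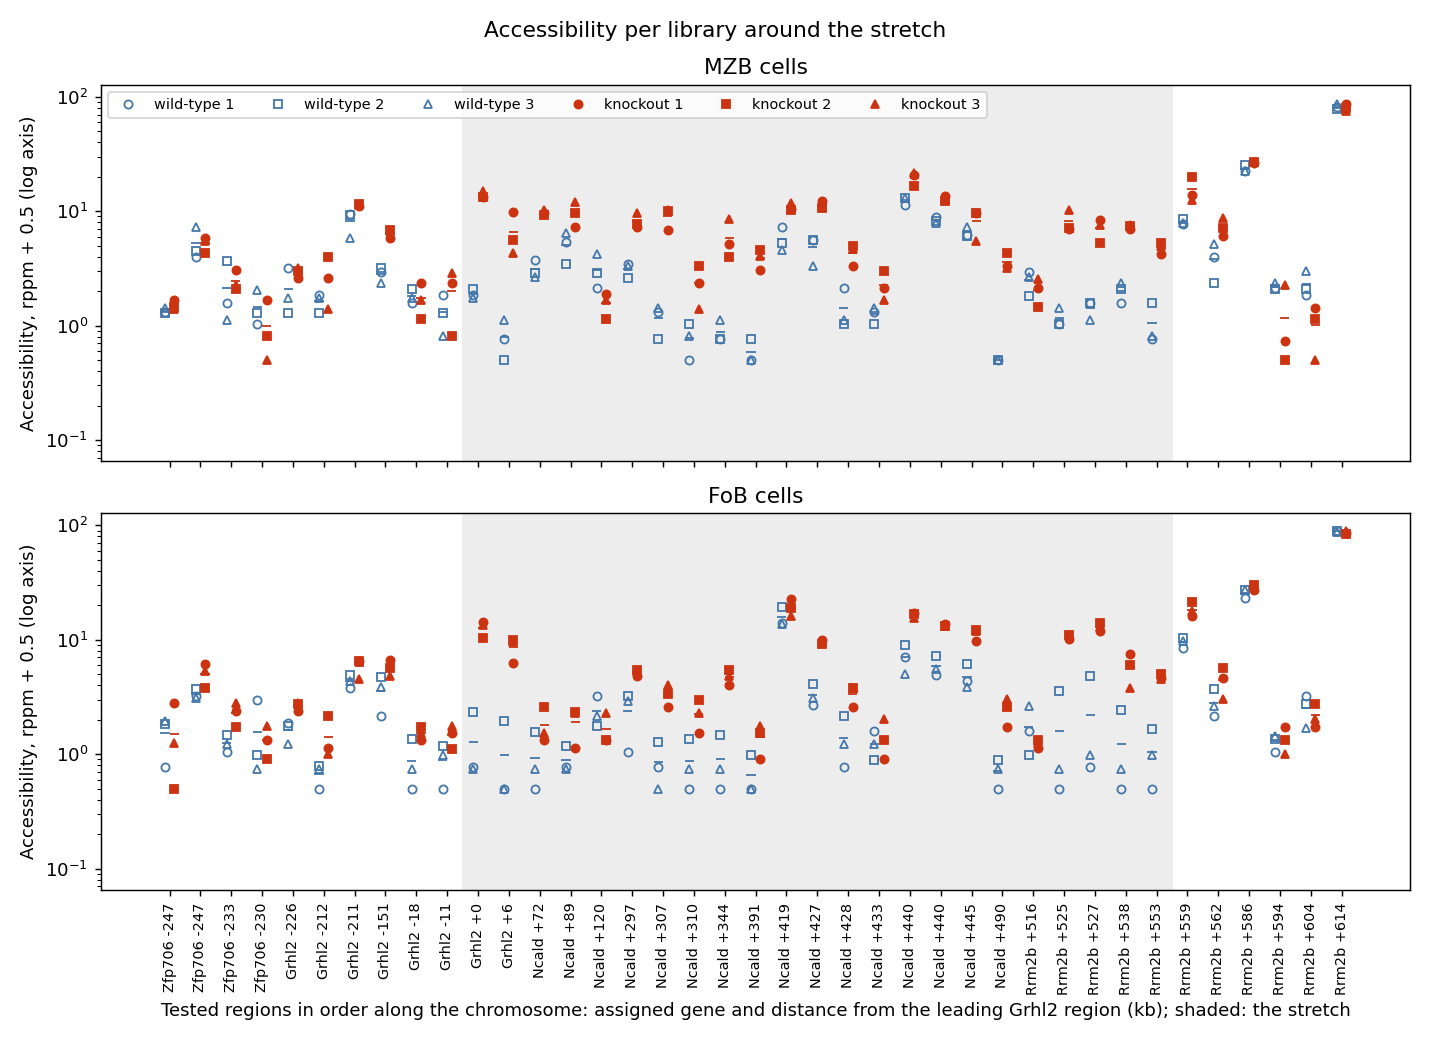
Accessibility of the tested regions in and around the stretch, 1 point per library, for wild-type and knockout MZB and FoB. Values are rppm with the constant of the limma scale added, on a log axis, and the stretch is shaded. In the 7 regions called 4-fold or more higher in both cell types, each knockout library lies above each wild-type library of its cell type. The 7 were chosen by these differences, so nothing is read from that separation. FoB wild-type library 2 is the highest wild-type FoB library in all 7. In some of the other regions the genotypes overlap.

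Not every region inside the stretch was more open in the knockout. Of the 23 tested, 5 were called in neither cell type, and 21 had a positive difference in each. The exceptions, picked out after their values were seen, were at 37467497 to 37467719 within Ncald (-0.95 ± 0.38 in MZB and -0.54 ± 0.38 in FoB) and at 37863260 to 37863392 between the genes (-0.29 ± 0.40 and -0.38 ± 0.40). The wild-type libraries measured 1.25 to 3.73 rppm at the first of these.

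Around the stretch the differences were smaller, in neighbours also picked out after their values were seen. The last tested region before it, 37336411 to 37336608 within Grhl2, was not called and differed by 0.50 ± 0.47 in MZB and 0.80 ± 0.47 in FoB, and the one before that, 37328801 to 37329012, by -0.12 ± 0.42 and 0.93 ± 0.42. The first region after it, 37905942 to 37906570, also in Gm35019, was called in both, at 0.91 ± 0.18 and 0.94 ± 0.18. Its wild-type libraries measured 7.29 to 7.98 rppm in MZB and 7.94 to 9.93 in FoB, so it was open in wild-type cells, unlike the 7 strongest. Each of its calls was lost without knockout library 2 of that cell type (0.71 in MZB and 0.83 in FoB). Beyond it, the region at 37932266 to 37933091 inside Rrm2b differed by 0.20 ± 0.12 and 0.19 ± 0.12. The one at the far end of Rrm2b, 37960317 to 37961594, measured 75.4 to 89.5 rppm in every library and differed by -0.03 ± 0.08 and -0.04 ± 0.08.

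In windows of 1 Mb, the window from 37 Mb held 17 of the 21 MZB calls and 15 of the 18 FoB calls to the higher side. Its 43 tested regions had a median log2 difference of 0.66 in MZB and 0.93 in FoB. The windows from 36 and 39 Mb had no region called higher in either cell type, and those from 35 and 38 Mb had 3 and 1 in MZB and 2 and 1 in FoB. From 30 to 34 Mb and from 40 to 45 Mb no region was called higher in either. The window from 34 Mb, just outside the block, had 1 higher and 1 lower in each cell type.

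Joining called regions of either direction, higher or lower, with gaps of at most 2 Mb gave a run from 34442855 to 38453309 in MZB, 4.01 Mb with 25 called regions. Gaps of 1 or 5 Mb gave the same run, but it shrank to 2.12 Mb with 16 regions without knockout MZB library 3, to 2.51 Mb with 16 without wild-type MZB library 2, and to 2.63 Mb with 15 without wild-type MZB library 3. In FoB the run went from 34356579 to 39272296, 4.92 Mb with 22 called regions, the last of them lower in the knockout. With gaps of at most 1 Mb it shrank to 37346645 to 38248256, 0.902 Mb with 16 regions, and with 5 Mb it grew to 12.2 Mb. Without FoB wild-type library 2 it extended to 43503467, or 9.15 Mb with 26 regions, and without knockout MZB library 1 to the same place with 24. The outer limits of the run thus rested on single called regions, while the start of the stretch, 37346645, was the same under all alternatives tried. The end of the stretch, 37900230, moved to 37874791 without FoB wild-type library 1, to 37885531 with DESeq2 and to 37347677 with a pseudocount of 2, where 1 region was left.

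Before the stretch, 131 regions were tested, and 4 were called higher and 2 lower in MZB and 2 higher in FoB. Most of the higher ones lay within Vps13b, where 3 of 29 tested regions were called in MZB and 2 in FoB. The shares called higher over all tested regions were 0.502% and 0.32%. The first MZB call of the block was at 35757056 to 35757518, with 5.67, 5.05 and 6.53 rppm in wild-type and 10.03, 11.04 and 10.64 in knockout libraries (0.83 ± 0.21). The first FoB call, at 35816931 to 35817189, had 0, 0.964 and 0.716 rppm in wild-type and 3.52, 2.47 and 2.80 in knockout libraries (1.82 ± 0.42). Between them and Fbxo43, the region at 35820845 to 35821352 was called in both, at 1.16 ± 0.24 in MZB and 1.11 ± 0.24 in FoB. These Vps13b calls were close to the threshold. The call at 35757056 was lost without any 1 MZB library or FoB knockout library 2 (0.75 to 0.92), and that at 35816931 without any FoB knockout library or FoB wild-type library 1 (1.35 to 1.92). The MZB call at 35820845 was lost without knockout library 2 (1.03) or wild-type library 3 (0.85), and its FoB call without knockout library 2 or 3 or wild-type library 3 (1.03 to 1.08).

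Nearer to the stretch, a region 36614 bp before Grhl2, at 37195817 to 37196207 in the noncoding gene Gm41303, was called in MZB, where wild-type libraries measured 2.43, 2.66 and 1.87 rppm and knockout ones 5.36, 6.31 and 6.21 (1.20 ± 0.28). The call was lost without any MZB library other than knockout library 1 (1.08 to 1.29). Its FoB difference was 0.74 ± 0.28. Both regions called lower in MZB, named after their values were seen, also lay on this side. One was in Fbxo43, an inhibitor of the anaphase-promoting complex in meiosis, at 36167697 to 36168065, with 13.2, 15.7 and 14.9 rppm in wild-type and 9.80, 7.26 and 6.80 in knockout libraries (-0.85 ± 0.20). The other was in Rnf19a, a ubiquitin ligase, at 36261176 to 36261782, with 30.8, 25.8 and 30.2 against 19.8, 14.8 and 13.0 (-0.86 ± 0.17). The Fbxo43 call was lost without any MZB library other than knockout library 1 (-0.92 to -0.75), and the Rnf19a call without knockout library 3 (-0.73). In FoB these 2 differed by -0.74 ± 0.20 and -0.62 ± 0.17 and were not called.

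After the stretch, 88 regions were tested, with 2 called higher in MZB and 2 higher and 2 lower in FoB. A region 20879 bp from Odf1, which encodes a sperm tail protein, at 38247614 to 38248256, measured 4.11, 5.59 and 2.87 rppm in wild-type and 11.2, 11.5 and 10.7 in knockout FoB (1.35 ± 0.19). In MZB it differed by 0.65 ± 0.19 and was not called. The last MZB call, at 38452687 to 38453309 and 34121 bp from Azin1, measured 2.70, 2.39 and 4.98 rppm in wild-type and 9.10, 6.94 and 6.80 in knockout libraries (1.12 ± 0.28). It was lost without any MZB library other than wild-type library 3, and without FoB knockout library 1 or 2 (0.94 to 1.19). Both regions called lower in FoB were within Rims2. The one at 39256391 to 39257112 measured 30.4, 29.6 and 23.4 rppm in wild-type and 18.8, 19.4 and 17.8 in knockout FoB (-0.55 ± 0.14), and the one at 39271845 to 39272296 measured 23.3, 18.2 and 24.4 against 12.6, 13.8 and 11.7 (-0.76 ± 0.16). The first was not called without FoB wild-type library 2 (-0.50) or any of 7 other libraries (-0.58 to -0.49), and the second without FoB knockout library 1 or 3 or wild-type library 1 or 3 (-0.75 to -0.68).

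Calls were rare over all tested regions, at 0.502% higher and 0.275% lower in MZB and 0.32% and 0.219% in FoB. Nothing is therefore read from a gene without a call. Many genes of the block had no region called in either knockout comparison. Among them were Ywhaz with 23 tested regions, Zfp706 with 27, Klf10 with 13, Atp6v1c1, a subunit of the proton pump of endosomes and lysosomes, with 12, Pabpc1 with 11, Stk3, a kinase of the Hippo pathway, with 8, and Osr2, an odd-skipped zinc finger factor, with 5. Their median log2 differences ran from -0.53 for Stk3 to 0.12 for Pabpc1 in MZB and from -0.41 for Osr2 to 0.24 for Pabpc1 in FoB. Slc25a32 and Baalc had no region assigned to them. The region at 39111999 overlaps Slc25a32 too, but was assigned to Dcaf13, the longer of the overlapping genes.

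**Figure D3:**
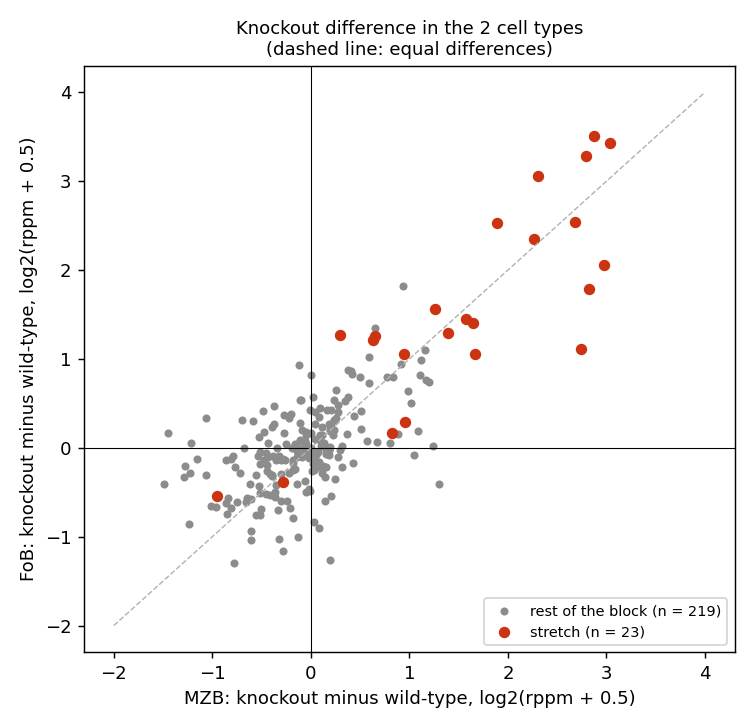
Knockout minus wild-type log2 difference of each of the 242 tested block regions, MZB on the horizontal and FoB on the vertical axis, with the 23 regions of the stretch in colour. The points of the stretch reach 3.03 in MZB and 3.51 in FoB, and the other 219 cluster around 0, with medians of -0.06 and -0.04. The stretch was set by these differences, so nothing is read from the contrast.

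The 2 knockout effects were then set against each other by their difference. It is computed from the same effects on which the block was selected, so it too is a description. None of the 242 regions was called (limma, Benjamini-Hochberg), where 15 had an unadjusted p below 0.05, beside 5585 of all 89782 tested regions. edgeR and DESeq2 also called none, with 14 and 5 below that level, beside 5480 and 1921 of all tested regions. Nothing is read from these counts. Over the whole series 0.00111% of regions were called. The estimates were not tight enough to show equal effects. At the leading Grhl2 region the MZB effect minus the FoB effect was -0.63 (95% interval -1.53 to 0.26), at 37874364 near Rrm2b it was -0.76 (-1.88 to 0.37), and at 37654311 in Ncald 0.92 (-0.16 to 1.99). Among the named regions the widest gap toward MZB was 1.63 (0.38 to 2.88) at 37737990 in Ncald, and the widest toward FoB was -0.98 (-1.63 to -0.32) at 37791585 in Ncald. These intervals are not adjusted for the number of regions, and neither region was called.

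Per library, accessibility was summed over the 18 block regions called 2-fold or more higher in knockout MZB. The sums were 34.3, 30.8 and 30.5 rppm in wild-type and 128, 129 and 137 in knockout MZB. In FoB, whose calls did not set this list but whose differences took part in the choice of the block, they were 14.8, 41.3 and 18.4 in wild-type and 101, 107 and 106 in knockout libraries. The 3 knockout libraries of a cell type lay close together, and FoB wild-type library 2 lay above the other 5 wild-type libraries and below every knockout one. The MZB calls chose these regions, so nothing is read from the gap between wild-type and knockout MZB.

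On the way from the other wild-type FoB libraries to the knockout FoB libraries, library 2 stood at 27.9% in these sums. Over the 178 regions chosen the same way outside the block it stood at 27.7%, with sums of 899, 1119 and 921 rppm in wild-type and 1752, 1592 and 1648 in knockout FoB. The shift of that library was thus as large outside the block as in it. Single regions of the 7 strongest placed it between 13.2% (Grhl2, 37346645) and 32.9% (37874364, near Rrm2b), from 8 to 45 reads. With all called regions of any size the places were 30.4% over 21 block regions and 26.8% over 430 others.

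**Figure D4:**
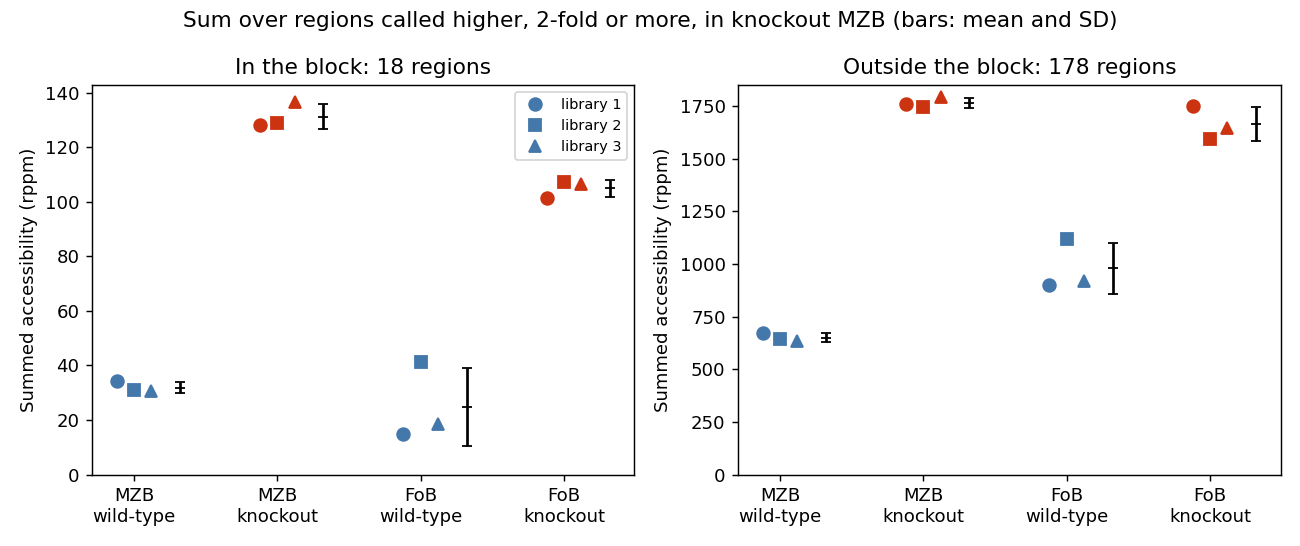
Summed accessibility in rppm per library over regions called 2-fold or more higher in knockout MZB, for the 18 in the block and the 178 outside it, with the mean and SD of each group beside the points. FoB wild-type library 2 reaches 41.3 rppm in the block and 1119 outside it, between the other wild-type FoB libraries and the knockout ones in both panels.

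Wild-type MZB and wild-type FoB were compared in a contrast that the choice of the block did not use. Of the 242 tested regions, 89 were more open in MZB (36.8%) and 16 in FoB (6.61%), beside 24.2% and 11.4% of all tested regions. The split depends on scaling. With TMM scaling it was 70 against 29, beside 17313 against 16256 of all 89782 tested regions. With quantile normalisation it was 56 against 21, beside 13509 against 13806 of all tested regions. These scalings moved the median of all regions from 0.18 to 0.04 and -0.08. The median of the block moved with it, from 0.45 to 0.30 and 0.10, and stayed above that of all regions under each. Of the 23 tested regions of the stretch, 6 were more open in wild-type MZB and 1 in wild-type FoB. These counts stand beside the same 24.2% and 11.4% of all tested regions, and nothing is read from them.

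Of the 6 named regions more open in MZB, all lay in 2 places, Vps13b and around Odf1, Klf10 and Azin1. Within Vps13b, the region at 35864504 to 35865120 measured 15.4 ± 0.950 rppm (SD, n = 3) in wild-type MZB and 1.84 ± 0.884 in wild-type FoB, with a log2 difference of 2.85 ± 0.30 (limma adjusted p = 1.2e-09). Another at 35870087 to 35870635 measured 7.55 ± 1.17 and 0.482 ± 0.303 rppm (3.07 ± 0.33, limma adjusted p = 1.95e-09). No MZB library overlapped an FoB library in either. The first of these had 5.83, 10.1 and 6.80 rppm in knockout MZB, a knockout difference of -1.01 ± 0.30 that was not called.

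Past the stretch, the region 19308 bp from Odf1, at 38199475 to 38199895, had the smallest adjusted p of the block. Wild-type MZB libraries measured 15.1, 11.4 and 12.1 rppm and wild-type FoB ones 1.37, 1.45 and 1.67, a log2 difference of 2.74 ± 0.23 (limma adjusted p = 6.65e-12). The region at 38181639 to 38182043, 37160 bp from Odf1, measured 7.05 ± 2.09 (SD, n = 3) against 0.240 ± 0.241 rppm, 3.36 ± 0.36 on the log2 scale (limma adjusted p = 1.65e-09). These MZB-open regions near Odf1 differed by 0.57 ± 0.23 and 0.09 ± 0.36 between knockout and wild-type MZB and were not called.

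Over all tested regions 24.2% were more open in wild-type MZB and 11.4% in wild-type FoB, a split that depends on scaling. At Klf10, 10 of 13 tested regions were more open in wild-type MZB and 2 in wild-type FoB. One of them, at 38278071 to 38278577, lies 12887 bp from the gene and measured 9.62 ± 0.801 rppm (SD, n = 3) in MZB and 1.56 ± 0.802 in FoB (2.38 ± 0.28, limma adjusted p = 1.32e-08). The region at the gene itself, 38300524 to 38301569, was among the most open of the block and went the other way, with 80.2, 90.7 and 93.9 rppm in MZB and 115, 120 and 111 in FoB (-0.39 ± 0.08, limma adjusted p = 0.000148). Further on, 47845 bp from Azin1, a region at 38567139 to 38567911 measured 27.3 ± 1.18 against 10.4 ± 2.04 rppm (1.37 ± 0.15, limma adjusted p = 2.38e-09).

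Among regions more open in FoB, the smallest adjusted p was inside the stretch, in Ncald at 37765709 to 37766580. Wild-type FoB libraries measured 13.4, 18.9 and 13.4 rppm and wild-type MZB ones 6.75, 4.79 and 4.04 (-1.48 ± 0.19, limma adjusted p = 7.49e-08). This is the region whose knockout difference was 0.96 in MZB and 0.29 in FoB, and knockout MZB libraries, at 10.0, 9.78 and 11.2 rppm, stayed below every wild-type FoB library. The region at 36933616 to 36934037, at a distance of 62990 bp from Zfp706, measured 11.3, 12.2 and 12.4 rppm in the MZB libraries and 19.4, 23.0 and 22.4 in the FoB ones (-0.82 ± 0.15, limma adjusted p = 4.76e-05). The Rims2 region at 39256391, lower in knockout FoB, was also more open in wild-type FoB than in wild-type MZB (-0.70 ± 0.14, limma adjusted p = 0.00011).

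The regions at 39111999 to 39113317, which overlaps both Dcaf13 and Slc25a32, and at 38517928 to 38518613 in Azin1 were more open in FoB. They measured 76.7 ± 3.96 and 47.9 ± 2.27 rppm (SD, n = 3) in MZB and 100.2 ± 5.58 and 62.6 ± 0.443 in FoB. Both differed by -0.38 ± 0.09 (limma adjusted p = 0.000977 and 0.00124). With quantile normalisation these 2 and the Klf10 region at 38300524 kept their sign and were no longer called, at -0.11 (Dcaf13 and Klf10) and -0.16 (Azin1).

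**Figure D5:**
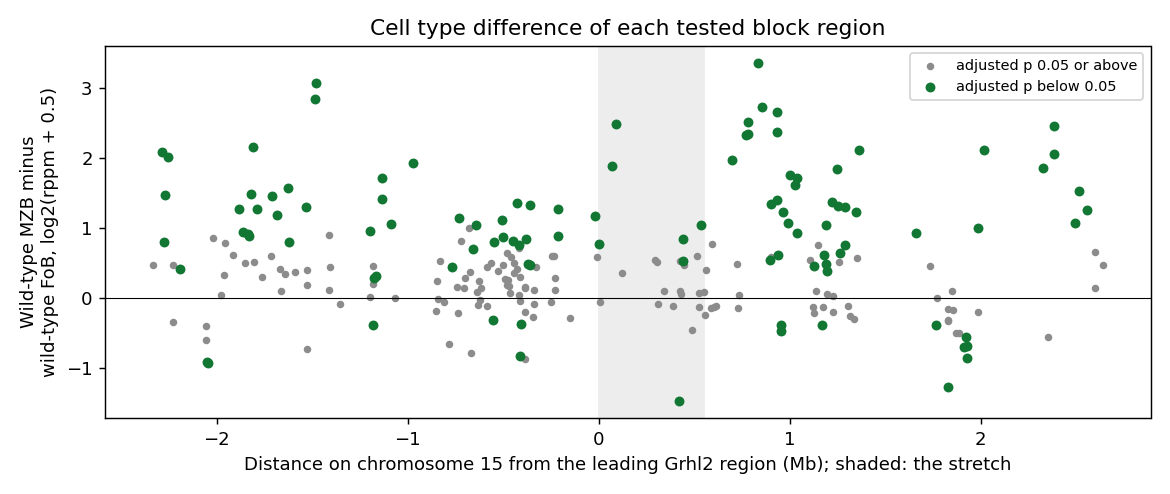
Wild-type MZB minus wild-type FoB log2 difference of each tested block region, against its distance in Mb from the leading Grhl2 region, with regions past the threshold in colour and the stretch shaded. The 89 regions more open in MZB spread along the block and reach 3.36, and 6 of them are among the 23 tested regions of the stretch.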

How the data were processed

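The authors deposited 1 table of 94161 regions by 12 libraries in RPM (rppm), scaled so that each library sums to 1000000, per the file headers. Bowtie 1.1.1, MACS2 and mm10 are named in the submitters' processing notes. The sources used here give no read filters, no way of merging peaks and no base of counting for coordinates, which are printed as deposited. Within a tolerance of 0.01, 100% of values were whole reads.

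One model with a coefficient per group was fitted over the 12 libraries in R 4.3.3 by limma 3.58.1, with a moderated variance that follows the mean (eBayes, trend), on log2(rppm + 0.5), two-sided. Fold changes on this scale understate those of low regions. The whole table was fitted, and block rows printed. edgeR 4.0.16 and DESeq2 1.42.0 on the recovered reads were alternatives. The procedure was tested on simulated data with known changes in knockout MZB. None was placed in regions with low mean values, so that test does not cover such regions. Exact intervals used scipy 1.17.1. Separate animals are not named in the labels, and the p-values rest on the spread of these libraries, which may be technical. Intervals and floors cover counting error only.

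Regions were assigned to the overlapping or nearest protein-coding gene of RefSeq GRCm38.p6, and to the longest where gene bodies overlapped. Its table gives gene bodies, so exons and introns were not used here. Named regions were the 12 largest differences called in both cell types, the 5 largest called in 1 only, the first and last calls, the 6 smallest adjusted p in each direction between wild-type cell types, and the largest of Grhl2, Ncald and Rrm2b. Exceptions are stated. The members, gene lists and rules were chosen with earlier results of these data known.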

Additional observations from a re-analysis of the deposited data

How the results depend on the processing

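The comparisons were repeated with pseudocounts of 0.1 and 2, without the filter, with quantile and TMM scaling, with edgeR, DESeq2 and the compared groups alone, and without each library in turn. No named region changed sign in the comparison it was named for. Regions higher in knockout MZB numbered 21, 7 with DESeq2, and 11 (without knockout MZB library 2) to 22 without 1 library. They numbered 15 at pseudocount 0.1, 24 at pseudocount 2, 26 with quantile scaling and 25 with the compared groups alone. Regions higher in knockout FoB numbered 18, 12 with DESeq2, and 13 to 19 without 1 library. Regions lower in knockout MZB numbered 2, 7 at pseudocount 2 and with quantile scaling, 6 with the compared groups alone, 4 with edgeR, 1 with DESeq2, and 1 to 3 without 1 library. Regions lower in knockout FoB numbered 2, 1 at pseudocount 0.1, with either scaling and with the compared groups alone, 3 with edgeR, 0 with DESeq2, and 0 (without wild-type FoB library 1) to 2 without 1 library. The wild-type cell types differed at 105 regions, 72 to 110 under the alternatives, 86 to 107 without 1 library. The knockout effects differed between cell types at 0 under all alternatives run. The cause of these shifts was not tested.

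The labels number libraries 1 to 3 in each group without saying that a number pairs them, and deviations of same-numbered libraries correlated at -0.09 to 0.13. With a replicate block the counts were the same, 21 and 2 in MZB, 18 and 2 in FoB, 105 between wild-type cell types and 0 for the difference of effects. Of the 18 MZB calls among regions named for a knockout difference, 10 to 18 were kept without 1 library, 12 at pseudocount 0.1 and 6 of the 13 with an adjusted p in DESeq2. Of the 18 such FoB calls, 13 to 18 were kept without 1 library, and 11 of 17 in DESeq2. The regions called 4-fold or more higher in both cell types numbered 7, 6 to 8 without 1 library, 9 with edgeR, 3 with DESeq2 and 1 at pseudocount 2. The stretch ended at 37900230 except at 37347677 with pseudocount 2, 37885531 with DESeq2 and 37874791 without wild-type FoB library 1. Depth limits the wild-type levels of the strongest regions, several of which lie near the level of 3 reads.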
